A study of Mus musculus with 4 samples.

Results

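The genes described here are Gria1, Gria2, Gria3 and Gria4, which encode the subunits of AMPA-type glutamate receptors, and Grid1, which encodes a delta-type glutamate receptor subunit. They are 5 of the 45706 features in the count matrices and were taken by name. Their level was read as UMIs (unique molecular identifiers, each standing for 1 captured RNA molecule) per 1000000 UMIs of the same nuclei, called CPM below, in each cluster and library.

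The study followed granule cells born in the adult mouse dentate gyrus by sequencing RNA of single nuclei. Young adult mice of both sexes, which carried a tamoxifen-inducible Cre driver active in stem and progenitor cells and the CAGfloxStop-Sun1/sfGFP reporter, received tamoxifen, which marks the nuclear envelope of the Cre-expressing cells and of all their progeny with green fluorescent protein. Labelled nuclei of the left dentate gyrus were sorted 1, 2, 4 or 8 weeks later, giving the libraries w1, w2, w4 and w8. Each library was 1 pool of animals, all of the same genotype and treatment, so no library is a control for another and weeks could not be tested against each other. The label marks what the Cre-expressing cells gave rise to and holds whatever other cells the driver or the sort let through, and the animals of a pool cannot be told apart.

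The matrices held 17046 barcodes, of which 14367 had a cluster in the table the authors deposited. These nuclei carried between 13227971 and 28595331 UMIs per library, and 22 barcodes occurred in more than 1 library. The cluster names are the authors' own. They run from radial glia-like cells (RGL) over neural progenitor cells (NPC), neuroblasts (NB1, NB2), immature granule cells (GCimm1, GCimm2) and young granule cells (GCyoung) to mature granule cells (GCmat1, GCmat2), with astrocytes (Astro), oligodendrocyte precursor cells (OPC), oligodendrocytes (Oligo) and pericytes (Peri) beside them. All genes on the marker lists for radial glia-like cells, progenitors, astrocytes, OPC, oligodendrocytes and pericytes or leptomeningeal cells peaked in the matching cluster. The last list (Tbx18, Slc6a13 and Pdgfrb), which peaked in Peri, does not tell pericytes from leptomeningeal cells. Peri also had a summed 496 CPM of the radial glia-like markers, 224 CPM of the OPC markers and 164 CPM of the astrocyte markers. The summed CPM of the 6 interneuron markers lay between 3.16 in Peri and 100.0 in GCimm1, with OPC at 78.5. The 3 microglial markers together lay between 15.8 and 53.7 in every cluster. The 3 endothelial markers together stood at 50.4 CPM in NPC and at no more than 22.1 CPM, in Peri, elsewhere. The mature cluster GCmat1 already held 17 nuclei in w1, so values for that library and cluster rest on few nuclei.

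AMPA receptors are tetramers that open when glutamate binds and carry most of the fast excitatory current at synapses. Their properties depend on which subunits are combined. GluA2, the product of Gria2, keeps calcium out of the channel because its RNA is edited at a single codon in the pore, which turns a glutamine into an arginine. Grid1 encodes GluD1, which is not opened by glutamate in the usual way and instead binds cerebellins and, through them, neurexins across the synaptic cleft. OPC are known to receive synapses that use AMPA receptors.

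The pore stretch around the edited codon is shown because editing of this codon in Gria2 RNA sets GluA2 apart. In the DNA the codon stands for glutamine in each of these genes, so the stretch as printed does not separate the subunits. It is given from the GENCODE transcripts on GRCm38, 5′ to 3′ on the coding strand, with the glutamine codon in capitals.
Gria1: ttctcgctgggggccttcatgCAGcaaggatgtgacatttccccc
Gria2: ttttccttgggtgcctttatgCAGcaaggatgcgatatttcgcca
Gria3: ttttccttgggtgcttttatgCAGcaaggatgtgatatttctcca
Gria4: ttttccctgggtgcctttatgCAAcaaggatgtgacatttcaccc
The codon lies in exon 11 of each transcript, at chr11:57243094-57243096 for Gria1 (plus strand), chr3:80706911-80706913 for Gria2 (minus strand), chrX:41610265-41610267 for Gria3 (plus strand) and chr9:4464137-4464139 for Gria4 (minus strand). It is codon 600, 607, 612 and 608 of the coding sequence, in the same order. Gria2 and Gria3 shared 42 of these 45 bases, and Gria1 shared 36 with each of them. Editing changes a base of the RNA, and counts of UMIs per gene do not show it, so the edited share was not analysed here.

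Gria2 is also known for a promoter element that binds the repressor REST, which holds neuronal genes down in other cells. The 250 bases before the Gria2 start site are shown for that reason, from RefSeq on GRCm38.p6, chr3:80802836-80803085, minus strand, with the match to the 15-letter RE1 pattern in capitals (GCTGTCC, then 2 free letters, then GGTGCT).
Gria2 promoter: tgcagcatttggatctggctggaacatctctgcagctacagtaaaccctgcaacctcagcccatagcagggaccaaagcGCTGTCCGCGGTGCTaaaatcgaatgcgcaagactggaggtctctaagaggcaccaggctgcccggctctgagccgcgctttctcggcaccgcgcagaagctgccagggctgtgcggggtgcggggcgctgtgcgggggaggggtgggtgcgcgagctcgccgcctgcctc
The match lay 156 bases before the start site, at chr3:80802992-80803006. Searched on both strands, the pattern occurred in 10 of 32851 promoters of the table, or 0.03044%. It was chosen with the Gria2 element in mind, and of the genes described here Gria2 and Gria4 have a promoter in the table. The match is a description of the sequence and says nothing on binding in these nuclei.

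Reads in exons and introns were both counted, so a longer gene can yield more UMIs. Gria1 spans 319 kb (chr11:57011387-57330244), Gria2 121 kb (chr3:80681450-80802835), Gria3 278 kb (chrX:41400854-41678601), Gria4 378 kb (chr9:4417896-4796234) and Grid1 763 kb (chr14:34820108-35583379), on GRCm38. No annotated gene that overlaps them and was counted had a UMI. Levels of different genes are therefore set against each other as CPM per kb of gene length, and other CPM values are compared between clusters for the same gene. CPM divides by the UMI total alone, whereas the fit also applies TMM factors, which adjust the totals so that most genes do not move. These factors lay between 1.04 and 1.13 in NB1 and between 0.707 and 0.990 in GCmat1, so fitted changes between distant clusters differ from those read off the CPM. Without the factors the median of all genes moved from -0.04 to -0.63 for NB1 to GCmat1 (log2), and the calls that depended on them are given beside the results. That alternative was chosen after seeing the data.

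**Figure D1:**
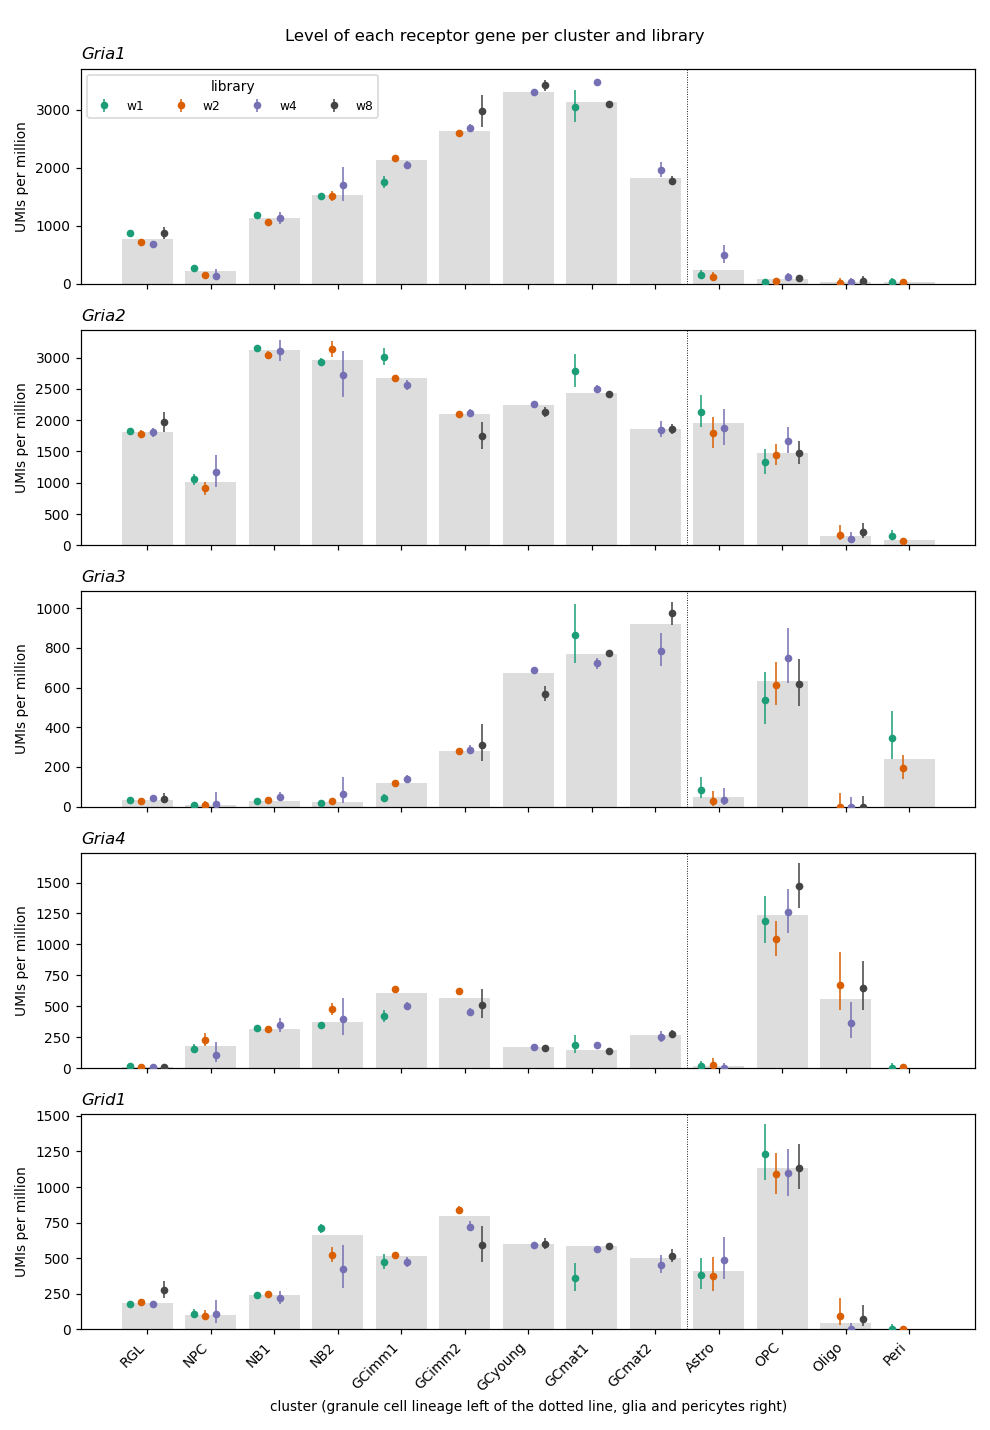
Level of each gene in CPM (vertical axes, linear) in each cluster (horizontal axis), with pooled libraries as grey bars and each library with at least 10 nuclei as a point with its exact 95% Poisson interval. Gria1 climbed to 3306 CPM in GCyoung, Gria2 was highest in NB1 at 3115, Gria3 was highest in GCmat2 at 920, and Gria4 and Grid1 were highest in OPC at 1235 and 1132.

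Gria1, the subunit tied most closely to activity-driven insertion of receptors, was lowest along the lineage in NPC and highest in GCyoung and GCmat1. Its level in RGL was 870, 723, 687 and 870 CPM in libraries w1, w2, w4 and w8, against 273, 154 and 144 in NPC of w1, w2 and w4. The groups did not overlap, and the fall was 4.61-fold (log2 change -2.21, SE 0.28, adjusted p 3.95e-09 in edgeR's quasi-likelihood test with Benjamini-Hochberg adjustment, as for every adjusted p below). In NB1 it stood at 1182 CPM in w1, 1070 in w2 and 1134 in w4, which was 6.48-fold above NPC (SE 0.28 on the log2 scale, adjusted p 2.61e-11). It rose again by 1.93-fold from NB1 to GCimm1 (log2 change 0.95, SE 0.24, adjusted p 0.00287), where it was 1759, 2161 and 2045 CPM in w1, w2 and w4. Without w2, which held most GCimm1 nuclei, that change was 0.82 and its adjusted p 0.140.

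From GCimm1 on, no single step of Gria1 passed the test. It measured 2592, 2685 and 2971 CPM in GCimm2 of w2, w4 and w8, 3297 and 3423 CPM in GCyoung of w4 and w8, and 3055, 3471 and 3095 CPM in GCmat1 of w1, w4 and w8. The libraries of GCimm1, GCimm2 and GCyoung did not overlap, and those of GCmat1 overlapped with GCyoung. Over the whole neuronal span, from NB1 to GCmat1, Gria1 rose by 3.76-fold (log2 change 1.91, SE 0.25, adjusted p 9.17e-09). For this span, here and for the other genes, only w1, with 17 GCmat1 nuclei, and w4 held both clusters in the fit. GCmat2 lay lower, at 1969 CPM in w4 and 1774 in w8, with a log2 change from GCmat1 of -0.80 (SE 0.27) and an adjusted p of 0.0676. That change passed under 6 alternatives, at adjusted p values between 0.00115 and 0.0468.

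Gria2, which sets the calcium permeability of the receptor, was the most frequent member per kb of gene length in every granule lineage cluster. In NB1, where it was highest, it reached 25.7 CPM per kb, against 3.57 for Gria1 on the same scale. This order depends on the scale. Per kb of exons (all transcripts merged), Gria2 was above Gria1 in NB1 (200 against 188) and NPC (64.7 against 36.4). Gria1 was above Gria2 in every other lineage cluster, with 129 against 117 in RGL and 547 against 145 in GCyoung. The raw level of Gria2 was 1823, 1787, 1807 and 1970 CPM in RGL of w1, w2, w4 and w8 and 1052, 909 and 1166 CPM in NPC of w1, w2 and w4. NPC lay below RGL in every library, by 2.28-fold in the fit (log2 change -1.19, SE 0.21, adjusted p 1.03e-05).

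In NB1 Gria2 stood at 3160, 3046 and 3110 CPM in w1, w2 and w4, a rise of 3.64-fold from NPC (log2 change 1.87, SE 0.22, adjusted p 8.74e-10). None of the later steps passed the test, and their log2 changes lay between -0.42 and 0.44. From NB1 to GCmat1 the log2 change was 0.21 (SE 0.22, adjusted p 0.478), with a 95% interval from -0.25 to 0.67. On the CPM scale every GCmat1 library with at least 10 nuclei, at 2425 to 2786 CPM, lay below every NB1 library, and without TMM factors the change was -0.27 (adjusted p 0.111), so no direction is given.

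Gria3, an X-linked subunit, had the largest fitted change of the 5 genes from NB1 to GCmat1. It measured 35.2, 29.1, 45.6 and 38.2 CPM in RGL of w1, w2, w4 and w8, and between 9.24 and 13.1 CPM in NPC of w1, w2 and w4. NB1 stood at 26.9, 34.2 and 47.1 CPM and NB2 at 17.4, 30.5 and 64.1 CPM in the same 3 libraries. All of these are low counts, and RGL, NB1 and NB2 overlapped with each other, while NPC lay below them. The fall into NPC was 4.08-fold (log2 change -2.03, SE 0.51, adjusted p 0.00143) and the rise into NB1 3.74-fold (log2 change 1.90, SE 0.52, adjusted p 0.00311). The first call was lost in thinned nuclei (adjusted p 0.0636) and the second in male nuclei alone (adjusted p 0.102).

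Gria3 then rose into GCimm1, GCimm2 and GCyoung. It was 44.3, 120 and 139 CPM in GCimm1 of w1, w2 and w4, and 280, 287 and 313 CPM in GCimm2 of w2, w4 and w8. GCyoung had 686 and 569 CPM in w4 and w8, and GCmat1 864, 723 and 775 CPM in w1, w4 and w8. The changes were 3.30-fold from NB1 to GCimm1 (log2 change 1.72, SE 0.23, adjusted p 4.17e-08), 2.76-fold from GCimm1 to GCimm2 (log2 change 1.46, SE 0.21, adjusted p 3.06e-07) and 2.52-fold from GCimm2 to GCyoung (log2 change 1.33, SE 0.22, adjusted p 5.17e-06). From NB1 to GCmat1 they came to 30.0-fold (log2 change 4.91, SE 0.24, adjusted p 2.06e-23). As the gene is X-linked, the fits were repeated in nuclei of each sex, and NB1 to GCmat1 gave a log2 change of 4.79 in male and 5.15 in female nuclei. The step from GCimm2 to GCyoung gave 1.42 and 1.49, and that from astrocytes to OPC 2.43 and 4.30, with 9 and 7 UMIs in astrocytes. In NPC there were 7 UMIs in 105 male nuclei and 0 in 87 female nuclei, where 3 counts would be 8.47 CPM, so no fold into or out of NPC is given by sex. Differences between the sexes were not tested.

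Gria4, a subunit best known from interneurons, the brain stem and the immature brain, showed a hump. It was almost missing from RGL, with 15.2, 11.3, 8.10 and 9.56 CPM in w1, w2, w4 and w8. NPC held 154, 225 and 105 CPM in w1, w2 and w4, an 11.7-fold rise (log2 change 3.54, SE 0.27, adjusted p 7.30e-16). In this step the other 4 genes fell.

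Gria4 then rose 2.27-fold to NB1, where it measured 320, 313 and 347 CPM (log2 change 1.18, SE 0.21, adjusted p 9.73e-06). GCimm1 stood at 418, 635 and 501 CPM in w1, w2 and w4, which was 1.74-fold above NB1 (log2 change 0.80, SE 0.17, adjusted p 0.000375). This call was lost without w2 (log2 change 0.59, adjusted p 0.142) and in male nuclei alone (0.58, adjusted p 0.0951). GCimm2 held 625, 454 and 513 CPM in w2, w4 and w8, and GCyoung 173 and 162 CPM in w4 and w8. That fall was 2.32-fold (log2 change -1.21, SE 0.21, adjusted p 7.34e-06) and was the single step between neighbouring clusters from NB1 to GCmat2 at which any of the 5 genes was called lower. GCmat1 stood at 186, 190 and 141 CPM in w1, w4 and w8, below every NB1 library. The log2 change from NB1 to GCmat1 was -0.25 (SE 0.19, adjusted p 0.312), not called, and without TMM factors it was -0.82 with an adjusted p of 9.15e-05, a called fall. GCmat2 had 252 and 275 CPM in w4 and w8 against 190 and 141 in GCmat1 of the same libraries, and the change of 0.64 (SE 0.21) passed narrowly with an adjusted p of 0.0460. It was lost under 8 alternatives, where the adjusted p lay between 0.0681 and 0.835.

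Grid1 was called higher from NPC to NB1 and again from NB1 to both NB2 and GCimm1. It was 181, 190, 175 and 277 CPM in RGL of w1, w2, w4 and w8, 108, 95.5 and 105 CPM in NPC and 239, 251 and 222 CPM in NB1 of w1, w2 and w4. The change was -1.22 on the log2 scale (SE 0.28, adjusted p 0.000486) into NPC and 1.46 (SE 0.28, adjusted p 3.63e-05) into NB1. In NB2 it reached 710, 523 and 423 CPM in the same libraries, 2.44-fold above NB1 (log2 change 1.29, SE 0.22, adjusted p 5.62e-05), and it was the sole member called between the neuroblast clusters. NB2 was above NB1 in each of the 3 libraries, with differences of 1.62, 1.09 and 0.68 on the log2 scale once TMM factors were applied, which lie lower for w4 than its CPM values do. Among female nuclei the difference was 1.08 with an adjusted p of 0.0739.

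GCimm1 held Grid1 at 473, 523 and 473 CPM in w1, w2 and w4. It was 2.24-fold above NB1 (log2 change 1.16, SE 0.21, adjusted p 3.75e-05), and its change from NB2 was not called (-0.13, SE 0.22, adjusted p 0.887). Grid1 stood in GCimm2 at 838, 723 and 593 CPM in w2, w4 and w8. The step from GCimm1 was 1.60-fold (log2 change 0.67, SE 0.21, adjusted p 0.0316), and it no longer passed without w2 (log2 change 0.50, adjusted p 0.625) or without w4 (0.56 and 0.311). Without TMM factors the change was 0.55 (adjusted p 0.0141), under the 1.5-fold limit. GCyoung and GCmat1 lay at 595 and 563 CPM in w4 and at 603 and 589 CPM in w8, and the 17 GCmat1 nuclei of w1 at 359 CPM, with no called change between them. From NB1 to GCmat1 Grid1 was 3.05-fold higher (log2 change 1.61, SE 0.23, adjusted p 6.65e-08).

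**Figure D2:**
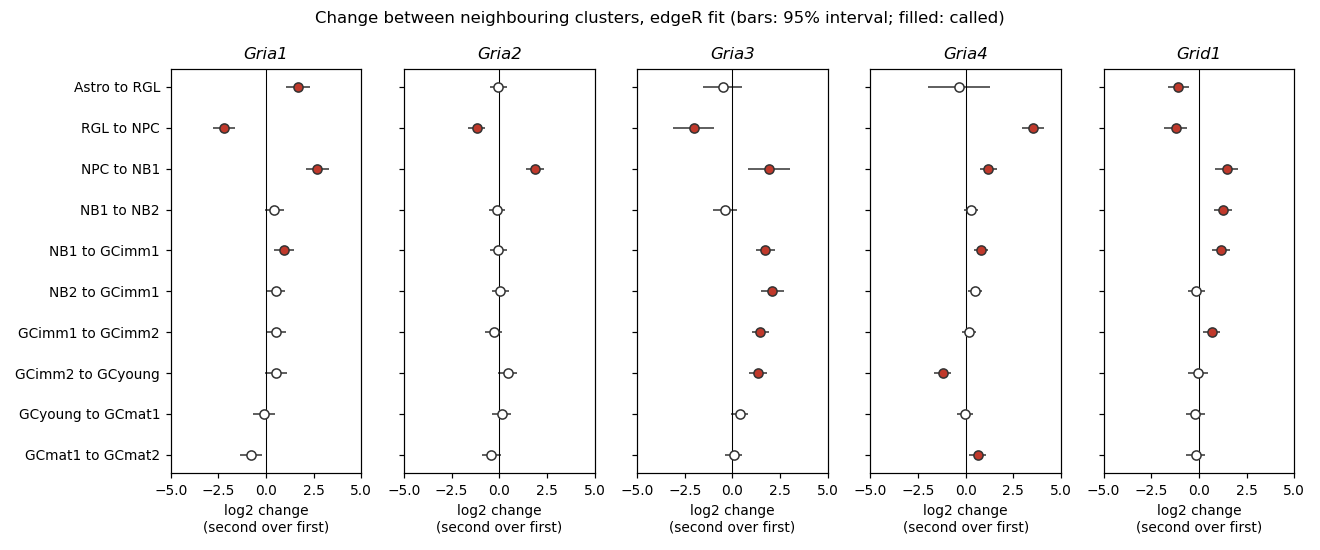
Log2 change of each gene between neighbouring clusters (horizontal axes, second cluster over first; rows are comparisons) from the edgeR fit, with 95% intervals; filled points were called. All 5 points are filled on either side of NPC, and 0 from GCyoung to GCmat1.

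The count of called members followed the steps. Calls needed a 1.5-fold difference or more and an adjusted p no higher than 0.05. From RGL to NPC all 5 were called, Gria4 higher and 4 lower, where 29.5% of the 13513 genes tested were called, 13.7% higher and 15.9% lower. From NPC to NB1 all 5 rose, against a background of 29.3% called in either direction and 14.7% higher. Without TMM factors the 5 members kept their calls at both steps. Between NB1 and NB2 1 of 5 was called (2.94% of all genes), from NB1 to GCimm1 4 of 5 (12.5%), from NB2 to GCimm1 1 of 5, Gria3 (7.59%), from GCimm1 to GCimm2 2 of 5 (9.43%) and from GCimm2 to GCyoung 2 of 5 (18.9%). Between GCyoung and GCmat1 0 of 5 were called in edgeR or in DESeq2, 0 of 5 had an unadjusted p under 0.05 (the lowest was 0.0737, for Gria3), and 3.85% of all genes were called. From GCmat1 to GCmat2 it was 1 of 5 (7.30%), and from NB1 to GCmat1 3 of 5, at a background of 40.1%.

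Those p-values describe how the sums of a library and a cluster differ. The authors drew the clusters from the same nuclei, so they are no independent evidence for the clusters. Gria1 and Gria2 were not in the authors' table of expression values: they were found in 92.8% and 98.7% of nuclei, and the authors kept features found in fewer than 80% for it. Gria3, Gria4 and Grid1 were in it, with 53.2%, 51.8% and 76.4% of nuclei.

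Astrocytes and RGL, which share many transcripts, differed in Gria1 and Grid1. Gria1 was 161, 116 and 499 CPM in astrocytes of w1, w2 and w4, a wide spread that rests on 80 UMIs in all, and RGL exceeded them 3.20-fold (log2 change 1.68, SE 0.30, adjusted p 3.65e-05). Within the libraries the difference, with TMM factors, was 2.39 in w1, 2.61 in w2 and 0.49 in w4. Grid1 was 383, 374 and 488 CPM in astrocytes, above every RGL value, with a log2 change of -1.08 (SE 0.26, adjusted p 0.00232), and this call was lost in nuclei thinned to equal depth (-0.71, adjusted p 0.186) and in nuclei of either sex alone. Here 2 of 5 members were called, against 9.58% of all genes, and the median gene lay 0.27 higher in RGL on the log2 scale.

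The share of each subunit among all UMIs of Gria1 to Gria4 shows the make-up without the total. Shares as counted depend on the length of the genes, so they are read between clusters, and shares between genes are given per length after them. Gria2 made up 68.7% of them in RGL, 71.2% in NPC, 67.7% in NB1, 48.4% in GCimm1, 35.1% in GCyoung and 37.5% in GCmat1. Gria1 made up 29.5% in RGL, 15.6% in NPC, 24.7% in NB1, 38.5% in GCimm1, 47.1% in GCimm2, 51.6% in GCyoung, 48.3% in GCmat1 and 37.6% in GCmat2. Libraries differed within clusters: in NPC the share of Gria1 was 18.3%, 11.9% and 10.1% in w1, w2 and w4. It was 33.6%, 38.7% and 39.0% in GCimm1 of the same libraries and 46.3%, 48.5% and 53.6% in GCimm2 of w2, w4 and w8. In NB1 it was 25.2%, 24.0% and 24.4% in w1, w2 and w4, and in GCyoung it was 51.4% in w4 and 54.5% in w8. There was 0.365 UMI of Gria1 for each UMI of Gria2 in NB1 and 1.47 in GCyoung, which per kb of gene length is 0.139 and 0.560.

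Gria4 gave 12.5% of these UMIs in NPC, 6.91% in NB1, 10.2% in GCimm2 and 2.69% in GCyoung. Gria3 gave 2.14% in GCimm1, 5.07% in GCimm2, 10.6% in GCyoung and 18.9% in GCmat2. From GCimm2 to GCyoung the share of Gria4 was thus lower and that of Gria3 higher. Divided by gene length, Gria2 stayed the largest part throughout the lineage, at 85.0% in NB1 and 58.3% in GCyoung, and Gria1 moved from 11.8% to 32.6%. Per kb of exons Gria1 exceeded Gria2 in GCyoung, as given above. The level of all 4 subunits together was 1412 CPM in NPC, 4602 in NB1, 5524 in GCimm1 and 6402 in GCyoung.

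**Figure D3:**
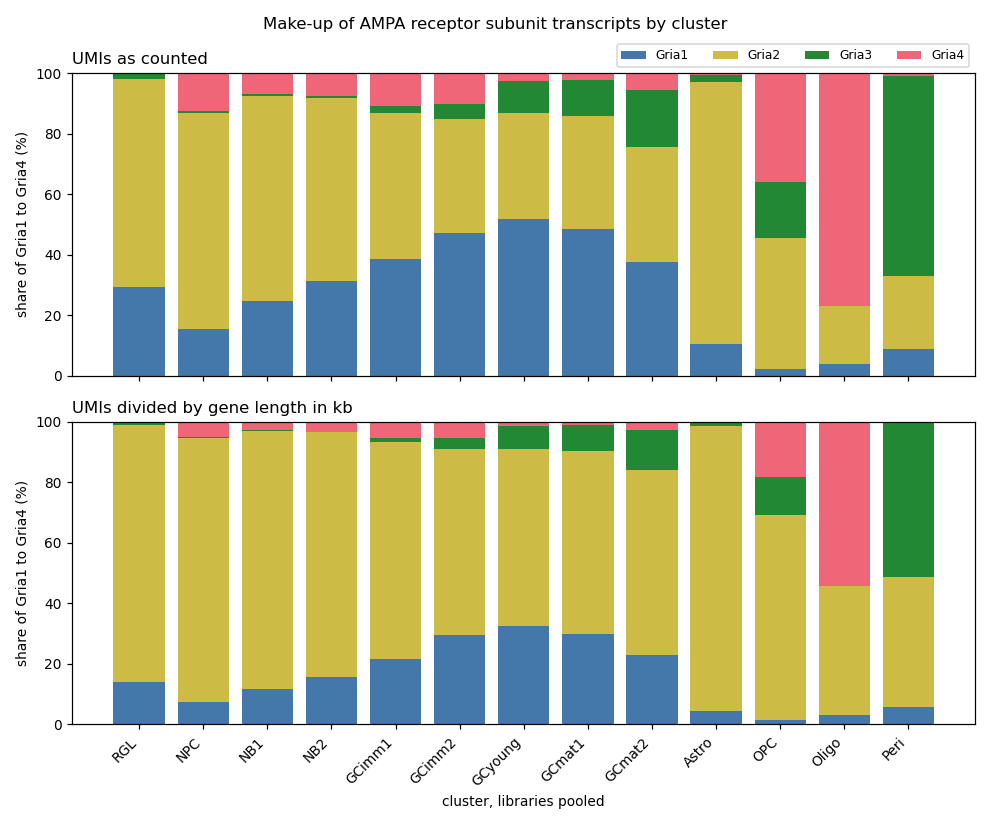
Share of Gria1, Gria2, Gria3 and Gria4 (vertical axes, percent of their summed UMIs) in each cluster (horizontal axis, libraries pooled), as counted (top) and divided by gene length (bottom). Gria1 widens from NPC (15.6% as counted) to GCyoung (51.6%), while Gria4 leads in Oligo (76.9%) and Gria3 in Peri (66.1%).

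Pseudo-time, the position the authors gave each nucleus on a path from RGL to GCmat1, resolves the course inside the clusters. It was cut into bins of width 1, and bins with fewer than 20 nuclei were not read. Gria1 was lowest at pseudo-time 8 to 9, with 171 CPM, and highest at 28 to 29, with 3580. Gria2 peaked at 11 to 12, among NB1 nuclei, at 3853 CPM, and was 1853 at 24 to 25 and 2557 at 28 to 29. With libraries pooled, Gria2 at 24 to 25 was thus below these earlier and later bins, though above its lowest level of 993 CPM at 8 to 9. By library it stood at 1877 CPM in w2 (21 to 22), 1875 in w4 (24 to 25) and 1793 in w8 (25 to 26). These are different bins and show no shared position. In w2 there were 9 GCyoung nuclei, too few to show the passage from GCimm2 to GCyoung.

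Gria4 peaked at pseudo-time 18 to 19 with 752 CPM and Grid1 at 21 to 22 with 897 CPM. At 18 to 19 the level of Gria4 was 817 CPM in w2 (95% interval 782 to 854) and 448 CPM in w4 (393 to 509), and at 19 to 20 it was 776 and 576 CPM. The intervals of w2 and w4 did not overlap at either position for this gene, while Gria3 was 235 and 229 CPM at 19 to 20 in the same libraries. Each week was 1 pool, so age and library cannot be told apart and the difference was not tested. Gria3 was 18.9 CPM at 13 to 14, 771 at 27 to 28, 704 at 28 to 29 and, at its highest, 794 at 30 to 31. In bins of equal numbers of nuclei the peaks lay at 10.8 to 12.3 for Gria2, 17.9 to 19.3 for Gria4 and, earlier than in the equal-width bins, 19.3 to 20.9 for Grid1.

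**Figure D4:**
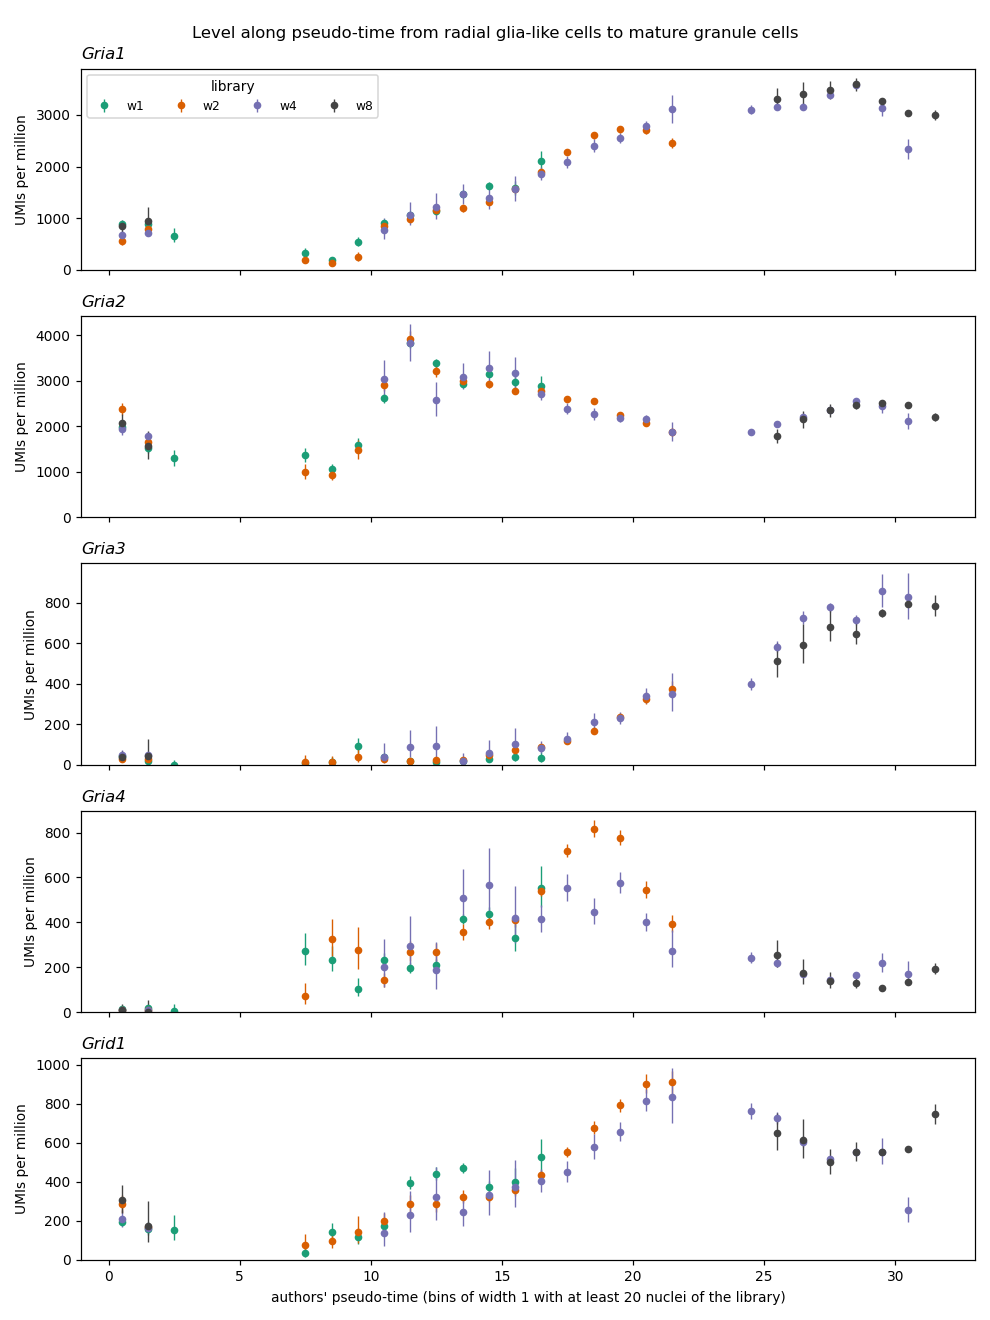
Level of each gene in CPM (vertical axes) against the authors' pseudo-time (horizontal axis, bins of width 1 with at least 20 nuclei of a library), with exact 95% Poisson intervals and libraries in colour. Gria4 at 18 to 19 stands at 817 CPM in w2 and 448 in w4, and Gria3 with libraries pooled is highest at 30 to 31, at 794 CPM.

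Counted by nucleus, nearly all granule lineage nuclei from NB1 on had a Gria2 UMI. With each nucleus thinned to 2000 UMIs (141 shallower nuclei left out), 88.2% of RGL, 76.2% of NPC, 99.0% of NB1 and 98.2% of GCyoung nuclei had a Gria2 UMI, with 28.9% in oligodendrocytes and 16.7% in pericytes. Free RNA can add to such shares, and its amount was not measured. Slc17a7, a glutamate transporter of mature excitatory neurons, had a UMI in 6.67% of oligodendrocytes and 5.00% of pericytes before thinning. The median depths of these clusters were 4801 and 5108 UMIs. Low glial shares are therefore not read as expression. For Gria1 the thinned shares were 59.0% in RGL, 25.2% in NPC, 79.8% in NB1, 95.7% in GCimm1 and 99.8% in GCyoung, with 4.44% in oligodendrocytes. For Gria3 they went from 4.55% in NB1 over 17.2% in GCimm1 and 36.4% in GCimm2 to 69.8% in GCyoung and 75.4% in GCmat1. Gria3 was found in 0 of 45 oligodendrocytes, which allows a share of nuclei with a UMI of up to 6.67% and sets no limit on the share that express the gene.

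Gria4 had a UMI in 3.75% of RGL nuclei and in 1.67% of pericytes before thinning, at median depths of 4091 and 5108 UMIs, and in 2.26% of thinned RGL nuclei. It was found in 54.5% of GCimm1, 54.7% of GCimm2 and 25.6% of GCyoung nuclei. Before thinning the shares were 72.6%, 81.3% and 54.8%, at median depths of 5046, 6979 and 7458 UMIs. A thinned nucleus with UMIs of all 4 AMPA subunits was seen in 1.05% of NB1, 9.94% of GCimm1, 19.2% of GCimm2, 17.1% of GCyoung, 16.8% of GCmat1 and 28.7% of GCmat2. The intervals behind these shares and levels cover counting error alone.

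OPC had a subunit profile of their own among the glia. Gria4 stood at 1189, 1041, 1258 and 1470 CPM in OPC of w1, w2, w4 and w8, above every other cluster and library. Gria3 was 537, 613, 751 and 618 CPM, Gria2 1327, 1440, 1672 and 1476 CPM, and Gria1 38.3, 58.4, 119 and 94.7 CPM in the same order. Grid1 was 1235, 1090, 1096 and 1136 CPM, again above all other clusters.

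Against RGL, Gria4 was 116-fold higher in OPC (log2 change 6.86, SE 0.24, adjusted p 2.09e-31), Gria3 18.6-fold (4.22, SE 0.22, adjusted p 6.76e-23) and Grid1 6.28-fold (2.65, SE 0.20, adjusted p 6.33e-17), while Gria1 was 9.18-fold lower (-3.20, SE 0.28, adjusted p 2.29e-14). Gria2 differed by -0.18 (SE 0.17, adjusted p 0.497). These 4 calls of 5 stand beside 29.7% of the 11548 genes tested, whose median lay 0.14 lower in OPC. Against astrocytes the same 4 genes were called (20.6% of all genes), with log2 changes of 6.47 for Gria4, 3.65 for Gria3, 1.52 for Grid1 and -1.58 for Gria1. Without w4 the last of these was -1.06, with an adjusted p of 0.131. Both comparisons use the same OPC sums.

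In oligodendrocytes Gria4 and Gria2 had the highest levels per gene length, at 1.48 and 1.16 CPM per kb with libraries pooled. Gria2 rested on 31 UMIs, and per kb of exons it was 9.08 against 88.8 for Gria4. The amount of free RNA was not measured, so this Gria2 level is not read as expression. The order of Gria4 and Gria2 per gene length was not the same in every library. Of the AMPA subunits per kb, Gria4 made up 55.2% and Gria2 43.0% in w2, and 47.7% and 48.4% in w8. Gria4 was 675, 368 and 644 CPM in w2, w4 and w8, a fall of 2.73-fold from OPC (log2 change -1.45, SE 0.23, adjusted p 1.02e-06). Gria2 fell by 10.9-fold to 169, 105 and 210 CPM (log2 change -3.44, SE 0.29, adjusted p 1.56e-14) and Grid1 by 26.3-fold (-4.72, SE 0.41, adjusted p 2.16e-14), with 0 UMIs in w4. Gria3 had 0 UMIs in all 45 nuclei, so with a floor of 3 counts over the cluster it was at least 46.3-fold lower than in OPC. In all 4 of 5 genes were called lower, where 20.0% of all genes were called and 13.2% were lower, with a median over all genes of -0.43. The Gria1 change of -1.62 (SE 0.70) had an adjusted p of 0.0984. Pericytes had more Gria3 than any other member per gene length (0.864 CPM per kb, Gria2 0.729), on 76 and 28 UMIs. Gria3 stood there at 346 CPM in w1 and 193 CPM in w2, with Gria4 at 3.16 CPM.

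With the clusters ordered by level, for Gria1, 7 of the 12 neighbouring pairs of clusters had library ranges that did not overlap, and for Gria2, Gria3 and Grid1 5 of 12, with 6 of 12 for Gria4. GCyoung and GCmat1 overlapped for Gria1, as did NB1, NB2 and GCimm1 in turn for Gria2, GCmat2 and GCmat1 for Gria3, and GCimm1, GCimm2 and Oligo for Gria4. At the lower end Astro, RGL, NB1 and NB2 overlapped in turn for Gria3.

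The paper left GCmat1 nuclei out of the pseudo-time for ventral genes, but counts more of them than lack a pseudo-time here, so the sets differ. GCmat1 nuclei without a pseudo-time had counting intervals apart from the others for 4 of the 5 genes in w8. The 216 such nuclei had Gria4 at 241 CPM (95% interval 222 to 261) against 131 CPM (126 to 135) in the 2711 others, and Grid1 at 748 CPM (714 to 784) against 573 CPM (563 to 582). Gria1 and Gria2 were lower in them, at 2813 against 3125 CPM and 2013 against 2468 CPM, and Gria3 was 789 against 774 CPM. In w4 there were 4 such nuclei, with Gria4 at 157 CPM (63.0 to 323) against 190 CPM. No test was made, as 1 library held nearly all of them. Their median depth was 10885 UMIs against 7846.

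The partners of AMPA receptors were read from lists of 58 genes in all, described by counts and medians. Auxiliary subunits travel with the receptor and set its gating and anchoring. Of 13 tested, 7 rose and 2 fell from NPC to NB1 (median log2 change 1.63, all genes 0.06), and 8 rose and 1 fell from NB1 to GCmat1 (median 0.65, all genes -0.04), where 29.3% and 40.1% of all genes were called. Without TMM factors it was 6 and 2 at both steps. Cnih3, a cornichon that slows channel closing, went from 18.6 CPM in NPC to 190 CPM in NB1 (log2 change 3.49, SE 0.34, adjusted p 2.33e-12). Shisa6, which traps receptors at synapses, went from 54.9 CPM in GCimm1 to 281 CPM in GCimm2 (log2 change 2.44, SE 0.20, adjusted p 9.00e-14). Cacng3, one of the stargazin family, stood at 1.74 CPM in NB1 and at 121 CPM in GCmat1 (log2 change 6.01, SE 0.47, adjusted p 2.73e-15).

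Some auxiliary subunits went the other way. Cacng4 fell from 29.5 CPM in GCimm2 to 1.39 CPM in GCyoung (log2 change -4.17, SE 0.41, adjusted p 1.49e-11), the step in which Gria4 fell, and it was highest in OPC, at 705 CPM. Gsg1l, a subunit that dampens the current, was highest in NB2 at 246 CPM, was 5.08 CPM in GCimm2 (log2 change from GCimm1 -3.97, SE 0.33, adjusted p 2.16e-13) and came back to 34.5 CPM in GCyoung (log2 change 3.09, SE 0.38, adjusted p 4.22e-09). From GCmat1 to GCmat2, 2 of the 13 rose and 6 fell, with a median of -0.78 against -0.14 for all genes, of which 7.30% were called. DESeq2 gave 0 and 2.

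Among 9 genes for assembly of the receptor in the endoplasmic reticulum and its outer shell, 4 rose from NPC to NB1 and none fell, with a median of 0.03, where 29.3% of all genes were called and 14.7% were higher. Without TMM factors 2 rose and 2 fell. Porcn, an acyltransferase found with AMPA receptors, was 10.9 CPM in NPC and 71.1 CPM in NB1 (log2 change 2.96, SE 0.34, adjusted p 3.08e-10). Olfm2, an olfactomedin found with AMPA receptors, rose from 4.92 CPM in RGL to 165 CPM in NPC (log2 change 4.72, SE 0.33, adjusted p 5.73e-17) and fell from 152 CPM in GCimm2 to 30.1 CPM in GCyoung (log2 change -1.97, SE 0.24, adjusted p 4.26e-09). It moved in the same direction as Gria4 at both steps.

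Scaffold and trafficking genes (13 tested of 15) gave 5 higher and 1 lower from NB1 to GCmat1, with a median of 0.40 against -0.04 for all genes, of which 40.1% were called. Without TMM factors it was 3 and 3. Grip1, which binds the tails of GluA2 and GluA3, was 364 CPM in NB1 and 813 CPM in NB2 (log2 change 1.18, SE 0.20, adjusted p 2.72e-05). Nsf, an ATPase that binds GluA2 and keeps receptors at the surface, rose from 121 CPM in NB1 to 852 CPM in GCmat1 (log2 change 3.11, SE 0.20, adjusted p 5.38e-19). Grip2, a relative of Grip1, was the lower one, at 6.88 CPM in NB1 and 0.0685 CPM in GCmat1, where it had 2 UMIs (log2 change -4.05, SE 0.87, adjusted p 0.000135). Syndig1, a synapse organiser that binds AMPA receptors, went from 3.28 CPM in NPC to 189 CPM in NB1 (log2 change 5.99, SE 0.48, adjusted p 4.42e-15).

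Of the partners of delta receptors, the cerebellins Cbln1 to Cbln4 had at most 1.48 CPM in any cluster, close to the limit of detection. C1ql3, a secreted synapse protein on the same list, rose from 17.4 CPM in NB1 to 219 CPM in GCmat1 (log2 change 3.18, SE 0.31, adjusted p 1.34e-12). Its place on the list is no statement that it binds GluD1.

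Of the editing enzymes, Adarb1, the enzyme that edits the Gria2 codon shown above, was 33.9 CPM in NPC, 70.0 in NB1 and 143 in GCmat1. It rose from NPC to NB1 (log2 change 1.23, SE 0.31, adjusted p 0.00158) and from NB1 to GCmat1 (1.70, SE 0.21, adjusted p 7.25e-10), over the span in which Gria2 had no called change. Adarb2, a related protein with no known editing activity, went from 28.5 to 2566 CPM between NB1 and GCmat1 (6.81, SE 0.42, adjusted p 7.65e-20). All 5 kainate receptor genes were tested, and 4 rose from NPC to NB1 and 3 from NB1 to GCmat1, with none falling in either, where 29.3% and 40.1% of all genes were called. Without TMM factors 1 rose and 1 fell from NB1 to GCmat1. Grik4 was 81.0 CPM in NPC and 573 CPM in NB1 (log2 change 3.06, SE 0.29, adjusted p 6.33e-13).

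**Figure D5:**
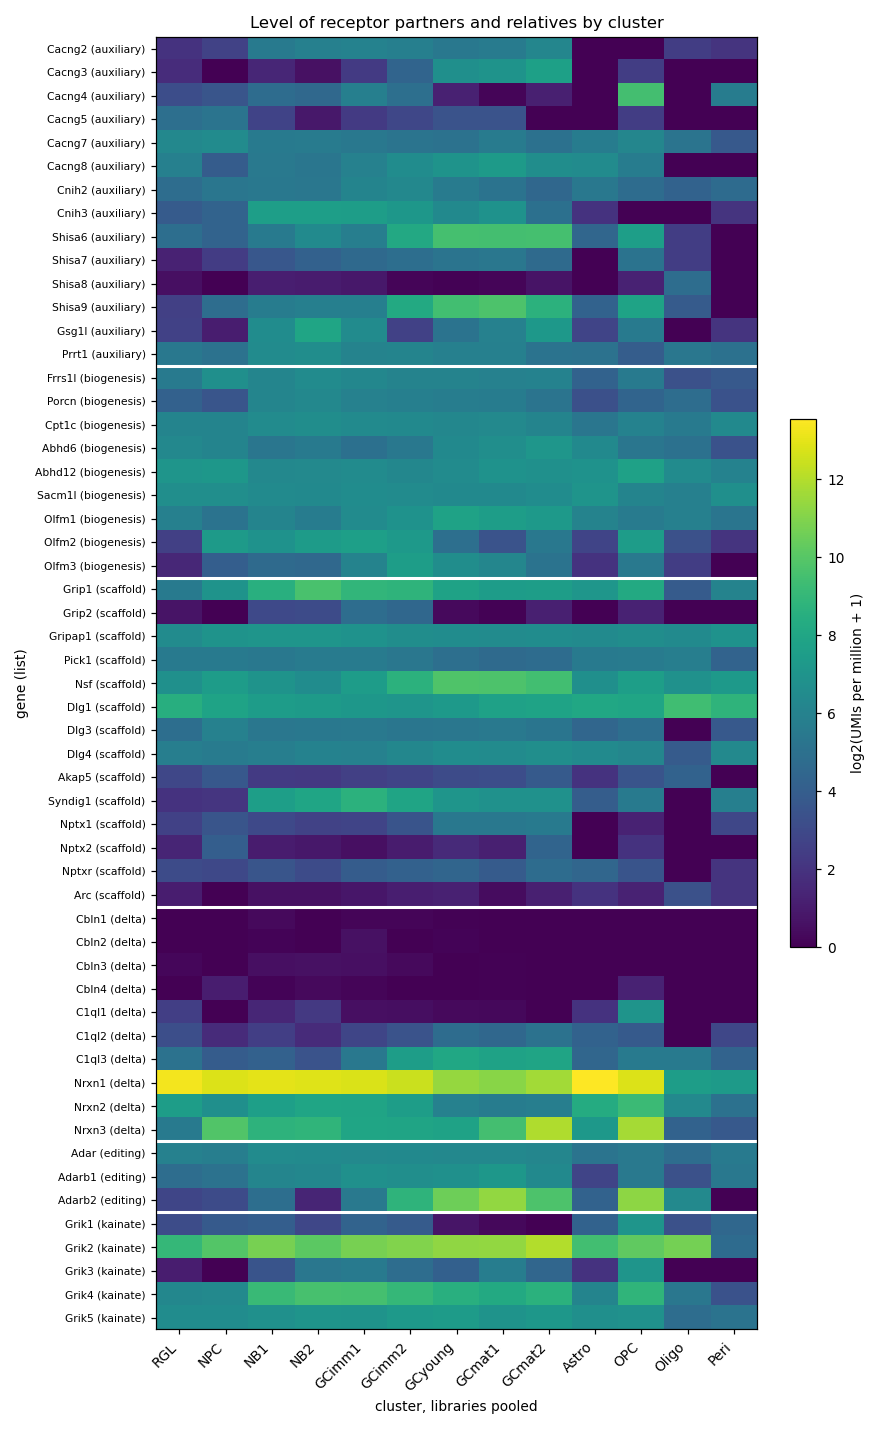
Level of the partner and related genes (rows, grouped by list) in each cluster (columns, libraries pooled), as log2 of CPM plus 1 on a colour scale. Shisa6 and Shisa9 brighten from GCimm2 on (281 and 302 CPM there), Cacng4 is brightest in OPC (705 CPM), and the Cbln genes are dark throughout.

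The genes whose course over the 29 sums of library and cluster was most like that of a member were given by Pearson's r of log2 CPM, as a description, since the sums share libraries, depth and clusters. For Gria1 they were Grin2a (r 0.96), Grin2b (0.96) and Scn1a (0.96), the first of them an NMDA receptor subunit that went from 16.9 CPM in RGL to 3667 CPM in GCmat1. For Gria2 they were Galnt18 and Dok6 (0.92 each) and Gm10649 (0.89). For Gria3 they were Dlgap1 (0.96), Kcnd2 and Mkl2 (0.94 each), for Gria4 Frmd5 (0.98), Reep1 and Elavl3 (0.95 each), and for Grid1 Cadm2 (0.96), Kcnma1 and Gm10649 (0.93 each). Among the members themselves the highest r was 0.79, between Gria1 and Gria3 and between Gria1 and Gria2, and the lowest 0.36, between Gria4 and Grid1.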

How the data were processed

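Single nuclei were measured in 4 libraries, each 1 pool of animals. The authors aligned reads to mm10 with STARsolo 2.7.4a, counted exons and introns, left out multi-mapped reads and deposited UMI counts per barcode. These counts date from before the authors removed doublets and low-quality nuclei. A deposited table holds log2 expression and, per nucleus, its cluster and pseudo-time, used here for those labels and as an alternative. The sex of a nucleus was not in that table and was called here by comparing its summed UMIs of Xist and Tsix with those of Ddx3y, Eif2s3y and Uty, giving 6215 male and 6931 female nuclei and 1221 without a call. UMIs were summed per library and cluster with at least 10 nuclei. edgeR 4.0.16 (R 4.3.3) fitted 29 sums and 13513 genes for the granule lineage and astrocytes, and 38 sums and 11548 genes for all clusters, with cluster and library terms and quasi-likelihood tests with Benjamini-Hochberg adjustment. The p-values measure the spread between these sums, not between animals. Intervals are exact at 95% and cover counting error only. Named partners were taken, per list and comparison, from the 2 called genes of largest change with at least 50 UMIs. Some items are not reported here. Members, lists and tests were chosen with earlier results of these data known. The tests were tried on simulated data with 100 genes changed 2-fold per comparison. They recovered 37 of these from RGL to NPC, 71 from GCimm1 to GCimm2 and 63 from GCyoung to GCmat1. For a gene drawn from all those tested, a step that was not called can therefore hold a change of that size. These shares were not measured for the members, whose own SEs describe their steps better. From GCyoung to GCmat1 the log2 changes of the members lay between -0.19 (Grid1, SE 0.23) and 0.39 (Gria3, SE 0.21). Epb41l1 was on the list of scaffold and trafficking genes and is not described by itself here.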

Additional observations from a re-analysis of the deposited data

Results flagged for a closer look

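From GCyoung to GCmat1 Gria1 went from 3297 to 3471 CPM in w4 and from 3423 to 3095 CPM in w8. With TMM factors applied the changes were 0.12 and -0.028 on the log2 scale. Opposite signs in these libraries flagged it, each library is 1 pool, and the difference between them was not tested.

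All the genes also had UMIs in barcodes without a cluster, which enter no comparison above. The paper left out doublets, low-quality nuclei and a group of w4 nuclei, and such barcodes are among them. In w1, w2, w4 and w8 in turn, Gria1 stood there at 1152, 1657, 2488 and 2773 CPM. Gria2 stood at 2425, 2271, 1910 and 2200 CPM in the same order. Gria3 stood at 158, 170, 672 and 704 CPM, and Gria4 at 385, 458, 282 and 223 CPM. Grid1 stood at 422, 502, 458 and 527 CPM. All lie above the level that 3 counts would give in these barcodes, which is at most 1.33 CPM.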

How the results depend on the processing

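Of 890 alternatives to the 70 results of single members, 856 kept the call, 24 lost it and 10 gained it. Of those 856, 42 had the other sign, all of them for results that were not called. Of the 38 called results, 29 kept their call under every alternative tried. The cause of the changes below was not tested. The numbers of genes called moved by over 1.5 times as follows, with the value above in parentheses. With nuclei thinned to 2000 UMIs they were 674 for Astro to RGL (1295), 2518 for RGL to NPC (3992), 2635 for NPC to NB1 (3964), 1653 for GCimm2 to GCyoung (2553), 255 for GCyoung to GCmat1 (520), 482 for GCmat1 to GCmat2 (986), 3564 for NB1 to GCmat1 (5423), 1386 for Astro to OPC (2381), 2251 for RGL to OPC (3433) and 1400 for OPC to Oligo (2304). In male nuclei alone they were 367 for Astro to RGL (1295), 213 for NB1 to NB2 (397), 1041 for NB1 to GCimm1 (1691), 598 for NB2 to GCimm1 (1026), 568 for GCimm1 to GCimm2 (1274), 1416 for GCimm2 to GCyoung (2553), 213 for GCyoung to GCmat1 (520), 421 for GCmat1 to GCmat2 (986), 3197 for NB1 to GCmat1 (5423), 908 for Astro to OPC (2381) and 1474 for OPC to Oligo (2304). In female nuclei alone they were 2019 for RGL to NPC (3992), 2401 for NPC to NB1 (3964), 61 for NB1 to NB2 (397), 417 for NB2 to GCimm1 (1026), 267 for GCyoung to GCmat1 (520), 405 for GCmat1 to GCmat2 (986), 1056 for Astro to OPC (2381) and 1248 for RGL to OPC (3433). With DESeq2 they were 194 for NB1 to NB2 (397), 813 for GCimm1 to GCimm2 (1274) and 229 for GCyoung to GCmat1 (520). At a fold change of at least 2 they were 1089 for NB1 to GCimm1 (1691), 752 for GCimm1 to GCimm2 (1274) and 1655 for GCimm2 to GCyoung (2553). Without a library term they were 189 for NB1 to NB2 (397). With 1 library left out at a time they ranged from 813 to 1453 for Astro to RGL, from 2550 to 4063 for NPC to NB1, from 102 to 431 for NB1 to NB2, from 780 to 1751 for NB1 to GCimm1, from 542 to 1064 for NB2 to GCimm1, from 410 to 1286 for GCimm1 to GCimm2, from 487 to 2618 for GCimm2 to GCyoung, from 216 to 539 for GCyoung to GCmat1, from 412 to 1126 for GCmat1 to GCmat2 and from 3505 to 5017 for NB1 to GCmat1. The split of calls into higher and lower moved by over 10 percentage points as follows, with the calls of the fit in the report in parentheses. With UMI totals and no TMM factors, an alternative chosen after seeing the data, the calls higher and lower were 2894 and 1492 for RGL to NPC (1850 and 2142), 1380 and 2743 for NPC to NB1 (1986 and 1978), 864 and 933 for NB1 to GCimm1 (1049 and 642), 687 and 863 for GCimm1 to GCimm2 (881 and 393), 776 and 2233 for GCimm2 to GCyoung (1253 and 1300) and 1578 and 5760 for NB1 to GCmat1 (2733 and 2690). With RLE factors they were 455 and 854 for Astro to RGL (644 and 651). With DESeq2 they were 318 and 890 for the same step, 1413 and 2112 for NPC to NB1, 141 and 53 for NB1 to NB2 (244 and 153), 682 and 1152 for GCimm2 to GCyoung, 56 and 173 for GCyoung to GCmat1 (216 and 304), 376 and 303 for GCmat1 to GCmat2 (407 and 579) and 1897 and 1273 for RGL to OPC (1673 and 1760). Grid1 from Astro to RGL lost its call with thinned nuclei (log2 change -0.71, adjusted p 0.186), in male nuclei (log2 change -0.94, adjusted p 0.314) and in female nuclei (log2 change -0.56, adjusted p 0.307). Gria3 from RGL to NPC lost its call with thinned nuclei (log2 change -1.53, adjusted p 0.0636). Gria3 from NPC to NB1 lost its call in male nuclei (log2 change 1.38, adjusted p 0.102). Grid1 from NB1 to NB2 lost its call in female nuclei (log2 change 1.08, adjusted p 0.0739). Gria4 from NB1 to GCimm1 lost its call in male nuclei (log2 change 0.58, adjusted p 0.0951). Gria1 from GCimm1 to GCimm2 passed with RLE factors (log2 change 0.62, adjusted p 0.0345) and with at least 25 nuclei per sum (log2 change 0.61, adjusted p 0.00751). Grid1 from GCimm1 to GCimm2 lost its call without a library term (log2 change 0.69, adjusted p 0.0696). Gria1 from GCmat1 to GCmat2 passed with DESeq2 (log2 change -0.76, adjusted p 0.0468), with RLE factors (log2 change -0.76, adjusted p 0.0264), with no filter on low counts (log2 change -0.84, adjusted p 0.00422) and with at least 25 nuclei per sum (log2 change -0.89, adjusted p 0.00115). Gria4 from GCmat1 to GCmat2 lost its call without a library term (log2 change 0.61, adjusted p 0.164), with DESeq2 (log2 change 0.71, adjusted p 0.0741), with no filter on low counts (log2 change 0.59, adjusted p 0.0943), in male nuclei (log2 change 0.85, adjusted p 0.197) and in female nuclei (log2 change 0.34, adjusted p 0.835). Gria1 from Astro to OPC lost its call in male nuclei (log2 change -1.58, adjusted p 0.077) and in female nuclei (log2 change -2.06, adjusted p 0.141). With UMI totals the calls of members that changed were Grid1 from GCimm1 to GCimm2 (log2 change 0.55, adjusted p 0.0141, lost), Gria1 from GCmat1 to GCmat2 (-0.80, adjusted p 0.0114, gained) and Gria4 from NB1 to GCmat1 (-0.82, adjusted p 9.15e-05, gained). With 1 library left out at a time, calls were lost or gained for log2 changes that ranged from 0.82 to 1.10 for Gria1 from NB1 to GCimm1, from 0.59 to 0.97 for Gria4 from NB1 to GCimm1, from 0.50 to 0.85 for Grid1 from GCimm1 to GCimm2, from -0.95 to -0.70 for Gria1 from GCmat1 to GCmat2, from 0.40 to 0.92 for Gria4 from GCmat1 to GCmat2, from -1.76 to -1.06 for Gria1 from Astro to OPC and from -1.93 to -1.38 for Gria1 from OPC to Oligo. Without w1 the calls that changed were Gria1 from GCmat1 to GCmat2 (-0.95, adjusted p 0.00265, gained) and Gria1 from OPC to Oligo (-1.81, adjusted p 0.0362, gained). Without w2 they were Gria1 from NB1 to GCimm1 (0.82, adjusted p 0.14, lost), Gria4 from NB1 to GCimm1 (0.59, adjusted p 0.142, lost), Grid1 from GCimm1 to GCimm2 (0.50, adjusted p 0.625, lost) and Gria4 from GCmat1 to GCmat2 (0.65, adjusted p 0.0681, lost). Without w4 they were Grid1 from GCimm1 to GCimm2 (0.56, adjusted p 0.311, lost), Gria4 from GCmat1 to GCmat2 (0.92, adjusted p 0.0812, lost) and Gria1 from Astro to OPC (-1.06, adjusted p 0.131, lost). Without w8 they were Gria4 from GCmat1 to GCmat2 (0.40, adjusted p 0.748, lost). Differences of the mean per nucleus of the deposited log2 values, which are compressed for genes with few UMIs, were for Gria3 -0.11 from RGL to NPC, 0.085 from NPC to NB1, 0.038 from NB1 to NB2, 0.29 from NB1 to GCimm1, 0.25 from NB2 to GCimm1, 0.62 from GCimm1 to GCimm2, 1.02 from GCimm2 to GCyoung and 2.42 from NB1 to GCmat1. They were for Gria4 0.38 from RGL to NPC, 0.47 from NPC to NB1, 0.53 from NB1 to GCimm1, 0.26 from NB2 to GCimm1, -0.75 from GCimm2 to GCyoung, 0.39 from GCmat1 to GCmat2 and -0.022 from NB1 to GCmat1. They were for Grid1 -0.62 from Astro to RGL, -0.35 from RGL to NPC, 0.45 from NPC to NB1, 0.78 from NB1 to NB2, 0.71 from NB1 to GCimm1 and 1.12 from NB1 to GCmat1. The uncalled Gria3 difference from NB1 to NB2 thereby changed sign. No paired analysis of the weeks was possible because each week has 1 library. The library term compared clusters within a library where that library held both, and the fit without it is the alternative above. For NB1 to GCmat1 those libraries were w1, with 17 GCmat1 nuclei, and w4. In w8 there were 2927 GCmat1 nuclei and 0 of NB1, so w8 enters that comparison through other clusters. Depth limits Gria3 in oligodendrocytes (0 UMIs) and NPC (9 UMIs) and Gria4 in pericytes (1 UMI) and astrocytes (5 UMIs).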
